A study of Danio rerio with 94 samples.

Results

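The expression response of zebrafish embryos to 1,6,7-TMN was described from 4 of the 93 measured samples, chosen by their sample titles, and was set against the 5 control samples of the series. 1,6,7-TMN is the trimethylated naphthalene with methyl groups at carbons 1, 6 and 7. Embryos of the 5D WT line were placed in closed glass vials at 6 hours post fertilization (hpf), kept with the chemical at 20 µM until 24 hpf, moved to clean medium and collected at 48 hpf. The control embryos were handled alongside without a naphthalene. The chemical stocks had been diluted in DMSO, and by the paper's screening method treatments and control were brought to the same DMSO content. Each sample was a pool of 6 whole embryos from a single vial, and only embryos of normal appearance were pooled. The other 21 chemicals, naphthalene among them, had 4 pools each under the same dose and hours. The 4 exposed pools, named A, B, D and E, were exposed on day 1, and the control held 2 pools of day 1 (A and C) and 3 pools of day 2 (A, B and C), since the authors had removed a day 1 control pool as an outlier. The pools of each chemical came from a single exposure day, so p values measure only the spread between pools within a group, which may be technical. That spread was estimated over all 93 pools, those of the 21 other chemicals among them.

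TempO-Seq, in which pairs of probes are joined on their transcript and then sequenced, gave values for 3068 genes. They are log2 CPM, in which read counts are scaled to the total of a pool adjusted by its upper quartile. The authors had corrected them for exposure day, and a gene without reads stands at -2.39. Reads are given throughout as the counts recovered from these corrected values, not as sequenced. The exposed pools held 7794976 to 10792348 recovered reads and the control pools 8143235 to 12695269. A single read was worth 0.0923 to 0.131 CPM in exposed pools and 0.0825 to 0.119 CPM in control pools. Between 449 and 475 genes had no reads in an exposed pool. Among the controls, the day 1 pools had 454 and 457 such genes and the day 2 pools 379, 381 and 362. The exposed pools, all of day 1, thus stood near the controls of their own day. Markers of skin (krt5, 9181 to 9858 CPM in exposed pools, against 9612 to 12787 CPM in control pools) and skeletal muscle (tnnt3b, 5272 to 9463 CPM, against 4950 to 10633 CPM in control pools) were present in the 9 pools. The 3 measured neuron markers summed to 398 to 445 CPM in exposed pools, against 410 to 512 CPM in control pools. In whole embryos, fewer cells of a type and less RNA per cell cannot be told apart.

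Several of the genes named here belong to the stress hormone pathway. Cortisol, the glucocorticoid of fish, binds a receptor held ready by chaperones and co-chaperones, and the bound receptor moves to the nucleus and switches on target genes. FKBP5 is both such a target and a brake, since the protein lowers the receptor's affinity for its hormone, and KLF9 is another direct target. Kruppel-like factors are zinc finger transcription factors that act in development and metabolism. Immediate early genes, such as the transcription factor gene fosab, respond to a stimulus within minutes.

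The comparison with the control asked which genes differed after the exposure. A differentially expressed gene (DEG) had a limma adjusted p of at most 0.05, with Benjamini-Hochberg adjustment over the 3068 genes, and an absolute log2 fold change (log2FC, exposed over control) of at least 1. There were 7 DEGs, or 0.228% of the genes tested. slc2a1b and rrp1 were higher in exposed embryos, and klf11a, sfrp1b, fkbp5, si:ch211-139g16.8 and klf9 were lower. At any fold change 10 genes passed the adjusted p (0.326%), which adds si:ch73-160i9.1, mpc2 and ndufa4. The median log2FC of all genes was -0.02.

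fkbp5, the co-chaperone of the glucocorticoid receptor, fell the most of the DEGs by log2FC. It was measured at -1.64, 1.37, 2.79 and 0.74 log2 CPM in exposed pools A, B, D and E, against 3.99 and 5.48 log2 CPM in the day 1 control pools and 5.48, 5.07 and 5.15 log2 CPM in the day 2 control pools. The exposed pools spread widely, pool A held a single read and pool D held 70, and the highest exposed pool was still below the lowest control pool, which held 131 reads. The log2FC was -4.22 with a standard error (SE) of 0.91 and a limma adjusted p of 0.0116. Summed over pools, the CPM of exposed embryos was 0.0821 times those of control embryos, with an exact 95% interval of 0.0671 to 0.0996. Such intervals treat the corrected counts as plain reads and leave out the spread between pools. Here and below, summed CPM was taken on the plain total of reads, without the upper quartile adjustment of the log2 values.

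klf9, a transcription factor gene that glucocorticoids induce, was nearly without reads after exposure. Exposed pools A, B, D and E held 7, 0, 6 and 6 reads, against 55 and 115 reads in the day 1 control pools and 83, 103 and 29 reads in the day 2 control pools. On the log2 scale these were 0.15, -2.39, -0.38 and -0.43 in exposed pools, against 2.76, 3.71, 3.03, 3.62 and 1.37 log2 CPM in control pools. The groups did not overlap, and the closest pools were exposed pool A and control day 2 pool C. The log2FC was -3.66 (SE 0.88, limma adjusted p = 0.0316), and the ratio of summed CPM was 0.0627 (exact 95% interval 0.0373 to 0.0992).

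klf11a, a second Kruppel-like factor gene, was abundant and had the smallest adjusted p of the comparison (limma, 0.00176). Its level was 6.69, 6.80, 7.23 and 5.77 log2 CPM in exposed pools A, B, D and E, against 7.76, 7.65, 7.80, 7.71 and 7.73 log2 CPM in control pools. The control pools had a mean of 7.73 and an SD of 0.06 (n = 5), whereas the exposed pools had an SD of 0.62 (n = 4) and pool E was the lowest of the 9. The log2FC was -1.11 (SE 0.20), and the summed CPM was 0.495 times those of control embryos. Without exposed pool E klf11a, sfrp1b, fkbp5, si:ch211-139g16.8, rrp1 and klf9 were no longer DEGs, and slc2a1b and si:ch73-160i9.1 were the 2 called.

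The 17 measured genes of the glucocorticoid response list held both fkbp5 and klf9 as DEGs, and the study itself had picked these 2 genes from these samples, so the count is not independent evidence of a direction. A further 4 of its genes were lower at an unadjusted p under 0.05 but did not pass the adjusted p. These were hsd11b2, which inactivates cortisol (log2FC -0.49, SE 0.14), dusp1, a phosphatase of MAP kinases (-0.65, SE 0.20), cebpd (-0.88, SE 0.30) and bcl6aa (-0.49, SE 0.19). Over all genes 186 were lower (6.06%) and 121 higher (3.94%) at that p. The other members did not share a direction, with tsc22d3, a classic glucocorticoid target, at a log2FC of 0.32 and the receptor gene nr3c1 at 0.16. The median log2FC of the 17 genes was -0.03, beside -0.02 over all genes. Of the 4 Kruppel-like factor genes, klf11a and klf9 were DEGs, klf11b had a log2FC of -0.92 and klf6a of -0.24 (unadjusted p under 0.05), and the median was -1.01. The study had picked klf11a and klf9 from these samples, so this count and median are not independent evidence either.

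slc2a1b, which encodes a glucose transporter of the GLUT1 type, rose the most of the DEGs by log2FC. It was at 3.69, 3.91, 5.45 and 4.93 log2 CPM in exposed pools A, B, D and E, against 1.61 and 2.16 log2 CPM in the day 1 control pools and 2.11, -0.36 and 1.62 log2 CPM in the day 2 control pools. All 4 exposed pools stood above the highest control pool, and control day 2 pool B, with 5 reads, was far below the rest. The log2FC was 3.07 (SE 0.59, limma adjusted p = 0.00279), and summed CPM was 8.93 times those of control embryos (exact 95% interval 7.50 to 10.7). With voom, which weights each log2 value by the precision of its read count, the log2FC was 3.2 and the adjusted p 0.166.

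rrp1, a gene for a nucleolar protein of ribosomal RNA processing, was at 5.38, 5.22, 4.50 and 5.94 log2 CPM in exposed pools A, B, D and E, against 3.76, 4.08, 3.94, 4.45 and 4.09 log2 CPM in control pools. Exposed pool D lay just above control day 2 pool B, and the groups did not overlap. The log2FC was 1.2 (SE 0.28, limma adjusted p = 0.0285). Both rrp1 and klf9 were less firm calls, since each fell short of a DEG under 11 of 21 alternative settings. The other DEGs were lost under 4 (klf11a, sfrp1b), 5 (slc2a1b, fkbp5) or 6 settings (si:ch211-139g16.8). Every DEG was lost against the control pools of the same day.

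sfrp1b encodes a secreted frizzled-related protein, a family that binds Wnt ligands outside the cell. It was at 5.29, 5.55, 4.94 and 4.99 log2 CPM in exposed pools A, B, D and E, against 6.42, 5.80, 6.58, 6.34 and 6.58 log2 CPM in control pools. The lowest control pool, day 1 pool C, was 1 of the 2 same-day controls and the nearest to the exposed pools. The log2FC was -1.15 (SE 0.24, limma adjusted p = 0.00872) and the ratio of summed CPM 0.440 (exact 95% interval 0.414 to 0.468).

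si:ch211-139g16.8, a gene model without a named function, was all but absent from exposed embryos. Exposed pools A, B, D and E held 1, 0, 1 and 0 reads, against 39 and 20 reads in the day 1 control pools and 48, 47 and 18 reads in the day 2 control pools. That is 2 reads in all against 172, a ratio of summed CPM of 0.0148 with an exact 95% interval of 0.00177 to 0.0542. Its log2FC of -3.87 (SE 0.84, limma adjusted p = 0.0116) depends on the value given to a gene without reads. With a pseudocount of 4 CPM it shrank to -0.89 and was no DEG.

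**Figure D1:**
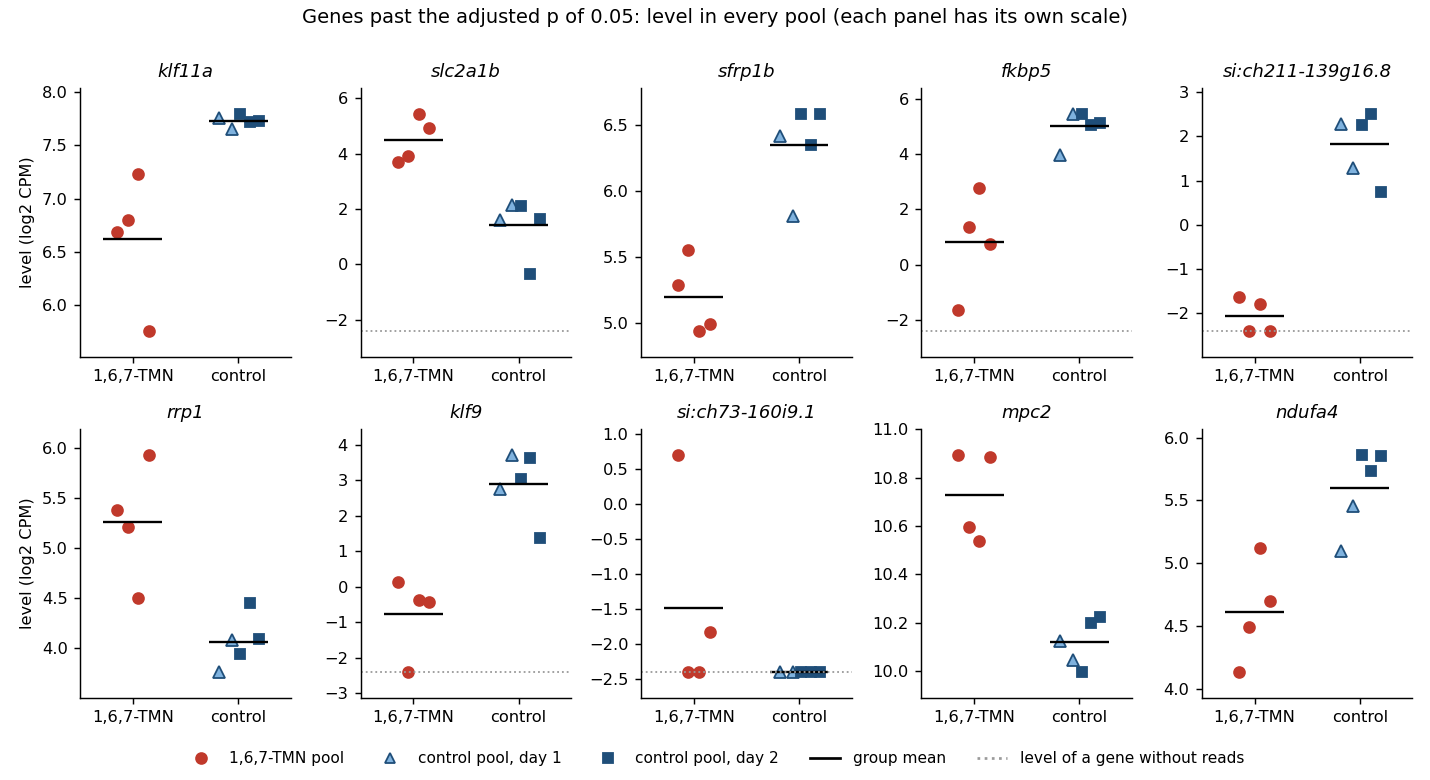
Level in log2 CPM (vertical axes, each panel with its own scale) of the 10 genes past the adjusted p of 0.05 in the 4 pools exposed to 1,6,7-TMN (red circles), the 2 day 1 control pools (triangles) and the 3 day 2 control pools (squares). Bars are group means and the dotted line is the level of a gene without reads. In 8 of the 10 genes the exposed and control pools do not overlap, the exceptions being si:ch73-160i9.1 and ndufa4. Over all genes, 1.17% did not overlap with the exposed pools higher and 1.56% with them lower. The 10 genes were chosen for their difference between these pools, so this count adds no support.

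The 3 genes past the adjusted p but under the fold threshold differed in kind. mpc2 encodes a subunit of the mitochondrial pyruvate carrier and was at 10.89, 10.60, 10.54 and 10.89 log2 CPM in exposed pools, against 10.12, 10.04, 10.00, 10.20 and 10.22 log2 CPM in control pools, a clear separation of small size (log2FC 0.61, SE 0.15, limma adjusted p = 0.0480). ndufa4, a gene for a subunit of the respiratory chain, was at 4.14, 4.49, 5.12 and 4.70 log2 CPM in exposed pools, against 5.10, 5.46, 5.86, 5.73 and 5.85 log2 CPM in control pools (log2FC -0.99, SE 0.25, adjusted p = 0.0480). Its exposed pool D overlapped control day 1 pool A, and the 2 day 1 control pools were the lowest of the controls. si:ch73-160i9.1 had 11, 0, 0 and 1 reads in exposed pools and none in control pools or in the 84 pools of the other chemicals. Its result thus rested on exposed pool A. The exposed pools had an SD of 1.48, but the shared estimate of the spread took in all the groups without reads, which gave an SE of 0.21. Its adjusted p by limma (0.0163) is therefore no measure of the spread between exposed pools. Its summed CPM was 5.08-fold higher if 3 reads are assumed over the control group. This value is no lower bound. The exact 95% interval of the ratio, which treats the corrected counts as plain reads and leaves out the spread between pools, starts at 3.53.

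The calls also depended on which control pools were used. The 22 chemicals were each exposed on a single day, and day 1 had 2 control pools. Against these 2 pools alone limma called 5 genes, and 0 of the 7 were among them. The sign of the 7 could not change here, since the exposed pools of each did not overlap the control pools. The log2FC values were then -1.08 for klf11a (adjusted p = 0.0548), 2.61 for slc2a1b (0.162), -3.92 for fkbp5 (0.217) and -3.84 for si:ch211-139g16.8 (0.162). They were 1.34 for rrp1 (0.134) and -4.00 for klf9 (0.162). For sfrp1b the value was -0.92 (0.299), which is also under the fold threshold. Each had a larger SE, as the control arm held fewer pools. A fit of all pools with the day as a covariate called the same 5 genes, but it is not a separate check. As each chemical had a single day, the day was estimated from the control pools alone. The log2FC is then again that against the day 1 control pools. A fit of the 9 pools alone, without the spread of the other chemicals, left a single DEG, si:ch211-139g16.8. Leaving out exposed pools A, B and D in turn gave 6, 5 and 12 DEGs, with fkbp5 and rrp1 lost without pool A and si:ch211-139g16.8, rrp1 and klf9 lost without pool B. rrp1 was also lost without the day 1 control pools A or C or day 2 pool A, and klf9 without day 1 pool C or day 2 pools A or B.

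The 5 genes called against the day 1 controls were chosen after their values were seen. ddb2, which recognizes ultraviolet damage in DNA, was at 2.78, 2.05, 2.21 and 2.37 log2 CPM in exposed pools, against -1.69 and -2.39 log2 CPM in the day 1 control pools and 1.47, 1.47 and 1.93 log2 CPM in the day 2 control pools. fhl2a, a LIM domain gene, was at 4.88, 4.77, 4.75 and 5.02 log2 CPM in exposed pools, against 4.06 and 1.29 in the day 1 control pools and 3.75, 5.20 and 4.73 in the day 2 control pools. For ddb2 the exposed pools were above both sets of controls and nearer to those of day 2. For fhl2a they were above the day 1 pools, of which pool C was far the lower, and lay within the range of the day 2 pools, whose pool A was below day 1 pool A. The tests against day 1 alone gave a log2FC of 4.39 for ddb2 and 2.18 for fhl2a (limma adjusted p of 0.0121 and 0.000869). p2ry13, abcb11b and tapbpl had no reads in the 4 exposed pools. p2ry13, a purinergic receptor gene, had 28 and 16 reads in the day 1 control pools. The day 2 control pools held 0, 0 and 8. With 3 reads assumed over the exposed group, its summed CPM was 34.3-fold lower than in the day 1 controls. Against the 5 controls it was 13.7-fold lower. These values are no lower bounds, since they leave out the spread between pools. The reads of abcb11b and tapbpl in the day 1 controls came from pool A alone, with 8 and 11 reads.

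**Figure D2:**
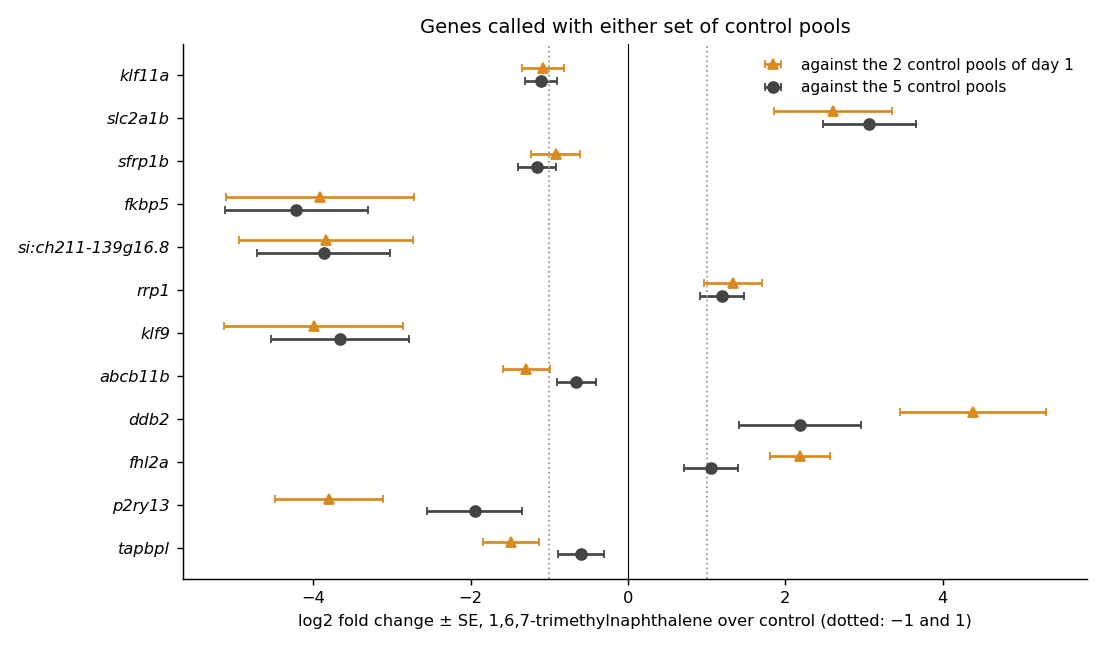
Log2FC with its SE (horizontal axis, 1,6,7-TMN over control) of the 12 genes called with either set of controls, against the 2 control pools of day 1 (triangles) and against the 5 control pools (circles). For the upper 7 genes the errors are wider against day 1 alone, where sfrp1b is under the fold threshold. For the lower 5 genes the value against day 1 is the farther from 0.

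Genes next in rank by p did not pass the adjusted p and are given as values. fosab, an immediate early gene, was at 4.22, 3.07, 4.40 and 3.15 log2 CPM in exposed pools, against 4.66, 5.44, 6.14, 5.99 and 5.19 log2 CPM in control pools (log2FC -1.78, SE 0.46, limma adjusted p = 0.0666). usp1, a deubiquitinase of DNA repair, and chek2, a DNA damage kinase, had log2FC values of 1.33 (SE 0.36) and 1.17 (SE 0.32), with an adjusted p of 0.0995 each. Their exposed pools stood at 4.95, 4.08, 3.58 and 4.92 log2 CPM for usp1, against 2.81, 3.50, 3.37, 2.14 and 3.40 in control pools, so that exposed pool D lay beside the highest control pool. Over all genes, the exposed pools were all above the control pools for 36 genes (1.17%) and all below for 48 genes (1.56%). rab1ab, gabarapb and adsl, which act in vesicle traffic, autophagy and purine synthesis, were among the lower ones, with log2FC values of -0.65, -0.57 and -0.49. mvp, the major vault protein gene, atp6ap1a, of the vacuolar proton pump, and rpl15, of the large ribosomal subunit, had log2FC values of 0.63, 0.60 and 0.47. hsd11b2, dad1, btg2, rhoab and pde6gb had values between -0.36 and -0.56, and the adjusted p of these 11 genes was between 0.118 and 0.181.

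The gene lists were counted to see whether members of known pathways moved with the exposure. Of the 25 lists, 23 held 0 DEGs by limma, and the 4 DEGs by voom were all among the 7 named above. The 34 genes of DNA damage and apoptosis held 0 DEGs, 3 higher and 2 lower genes at an unadjusted p under 0.05, and a median log2FC of -0.08. The log2FC was above 0 for 15 of these genes and below 0 for 19. Its usp1, chek2 and ddb2 had exposed pools above the control pools without overlap, as had 1.17% of all genes. The lists were chosen with earlier results of these data known, and ddb2 was named above after its values were seen. This count therefore adds no support. By contrast cdkn1a, whose protein halts the cell cycle, had no reads in the 4 exposed pools and in 2 of 5 control pools. The 19 immediate early genes had a median of -0.41, with 4 lower genes at that p (fosab, btg2, dusp1 and egr2b) and no higher ones. Over all genes 6.06% were lower and 3.94% higher at that p. The study had picked ctss2.1 of the 5 cathepsin list genes from these samples. These 5 genes had a median of 0.49, with 3 higher genes at that p. Among them ctss2.1, a lysosomal cysteine protease gene, was at 3.88, 2.48, 3.97 and 2.85 log2 CPM in exposed pools, against 2.90, -0.92, 1.83, 2.54 and 2.24 log2 CPM in control pools (log2FC 1.58, SE 0.46, limma adjusted p = 0.153), and the groups overlapped.

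Lists of genes that handle foreign chemicals were counted in the same way, beside the same shares over all genes of 3.94% higher and 6.06% lower. The 15 genes of the aryl hydrocarbon receptor response had 0 DEGs and 0 genes at an unadjusted p under 0.05, with a log2FC of 0.69 for cyp1a, the usual marker of that receptor (SE 0.91), and -1.16 for aip, a chaperone of the receptor (SE 0.60). The 32 genes of xenobiotic metabolism had 1 lower gene at that p, ephx1, an epoxide hydrolase gene, at 3.48, 3.55, 3.63 and 0.27 log2 CPM in exposed pools, against 3.76, 3.76, 3.97, 4.10 and 3.06 log2 CPM in control pools. Its difference came from exposed pool E. The 27 oxidative stress genes had 0 at that p, with a median of 0.06. The 23 heat shock and chaperone genes had 3 higher and 2 lower at that p, hspe1 (log2FC 0.55, SE 0.20) and dnajb9a (-1.26, SE 0.42) with the smallest p values. For dnajb9a the groups overlapped, and exposed pool A held 9 reads, with 93 to 154 in the other exposed pools.

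Lists of growth, tissues and metabolism held 0 DEGs, and their counts at an unadjusted p under 0.05 are to be read beside the 3.94% higher and 6.06% lower over all genes. The 78 cell cycle genes had 4 higher and 4 lower genes at that p and a median of 0.02, with cdk6 at a log2FC of 1.86 (SE 0.59) and e2f8 at -0.64 (SE 0.22). For cdk6 the groups overlapped, and control day 2 pool B held 0 reads, with 40 to 87 in the other control pools. The 39 genes of neurons and glia had 2 higher, grin1a (0.54, SE 0.18) and nefmb (0.73, SE 0.25), and 4 lower. The 44 mitochondrial genes had 1 higher, mrps2 (3.32, SE 1.06), and 4 lower, ndufa4 among them. For mrps2 exposed pools A, B, D and E held 47, 50, 1 and 51 reads, against 0, 1, 0, 0 and 5 in control pools, and the groups overlapped. The 40 genes of sterol and fatty acid metabolism had 3 in each direction, with elovl6 at 0.61 (SE 0.24). The 29 genes of cartilage, skeleton and neural crest had 3 higher and 0 lower, with crtap at 0.68 (SE 0.25) and barx1 at 0.68 (SE 0.30), but their median was -0.16. Matrix and skin genes (34) had 2 higher and 1 lower, with col1a1b at 0.34 (SE 0.14).

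In the remaining lists, to be read beside the same shares over all genes, single genes stood out at most. The 46 immune genes had 1 higher, mmp9 (log2FC 2.38, SE 1.1), and 2 lower, socs3a (-1.26, SE 0.54) among them. The 11 genes of red blood cells and haem had 1 in each direction. Of these hbba1, an adult beta globin gene, had no reads in the 4 exposed pools (limma adjusted p = 0.235). The day 1 control pools held 16 and 1 reads and the day 2 control pools 11, 13 and 1. Summed over pools, the 42 control reads made it 11.0-fold lower if 3 reads are assumed over the exposed group. This value is no lower bound, since it leaves out the spread between pools. The other gene, blvra, had a log2FC of 0.66 (SE 0.25). The 11 skeletal muscle genes had acta1a at 0.47 (SE 0.22) and tpm1 at -0.99 (SE 0.38), and the 18 fibroblast growth factor genes had fgf3 at 0.97 (SE 0.47) and fgfbp2b at -0.61 (SE 0.21), each at an unadjusted p under 0.05. The lists of heart (8 genes), endothelium (12), eye (15) and nucleotidases (7) had 0 genes at that p. For the circadian clock, nr1d1 (-1.41, SE 0.69) and nfil3 (-0.47, SE 0.23) were the 2 lower genes of 16.

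**Figure D3:**
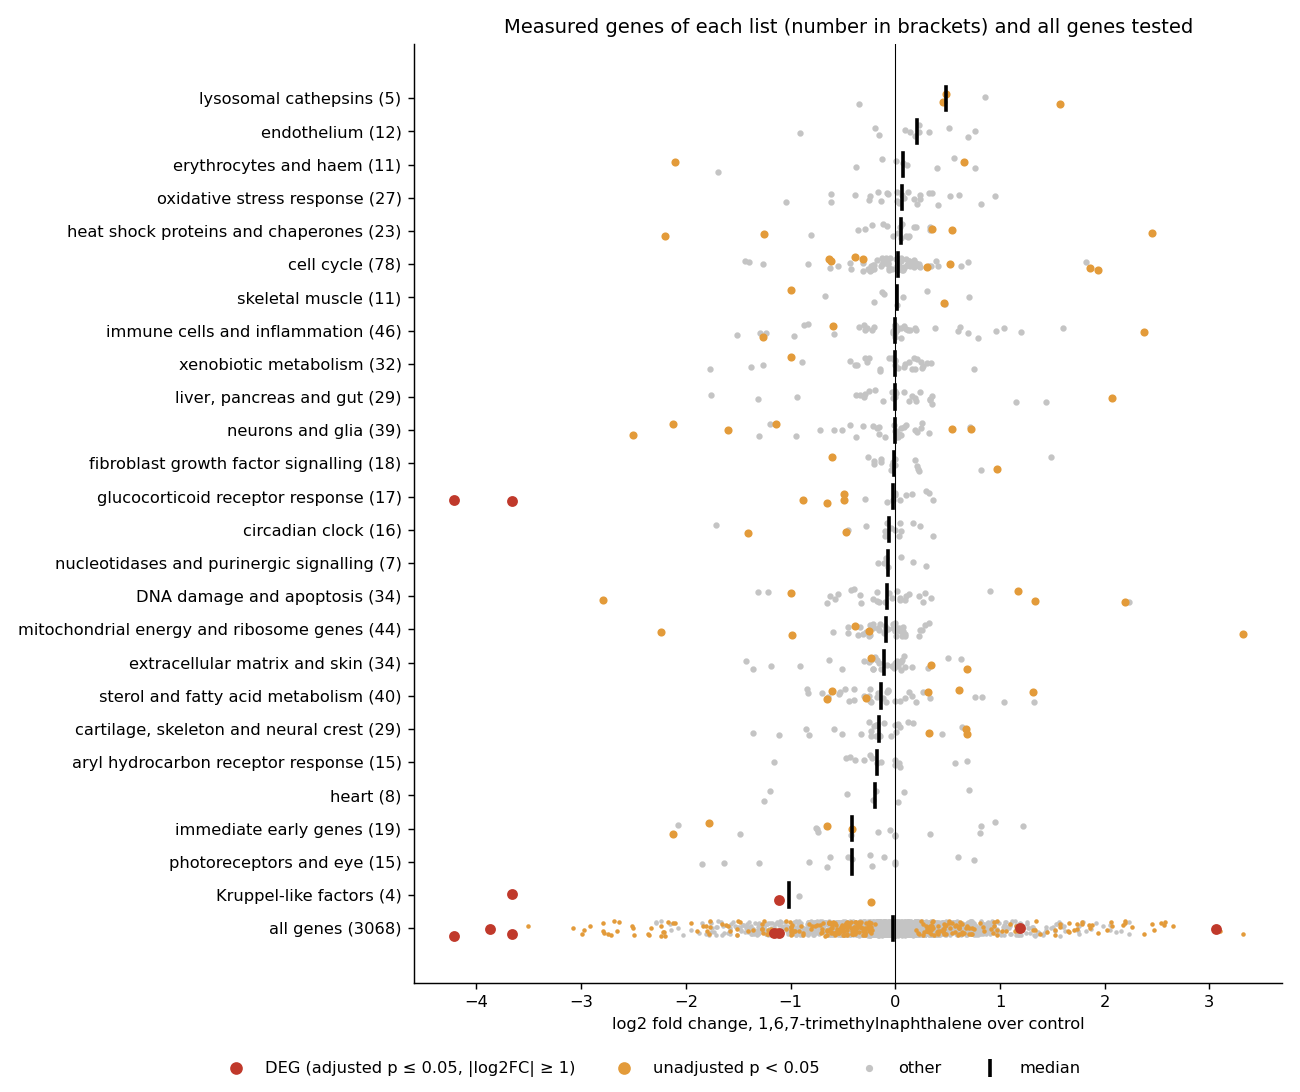
Log2FC of 1,6,7-TMN over control (horizontal axis) for each measured gene of the 25 lists and, in the lowest row, of all 3068 genes. Red points are DEGs, orange points have an unadjusted p under 0.05, and black bars are medians. The median of the 4 Kruppel-like factor genes, -1.01, is the farthest from 0, but the study had picked klf9 and klf11a from these samples.

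Genes that the study singled out across its chemicals were read in this exposure as well. fgfbp2b, which encodes a binding protein of fibroblast growth factors, was at 6.10, 6.61, 6.31 and 6.47 log2 CPM in exposed pools, against 7.32, 7.17, 6.98, 6.70 and 6.76 log2 CPM in control pools. The groups did not overlap, but the log2FC of -0.61 (SE 0.21) was under the fold threshold and the limma adjusted p was 0.245. nt5dc2 had a log2FC of 0.06 (SE 0.14, 95% interval -0.22 to 0.33). nt5e, whose enzyme makes adenosine outside the cell, had reads in 1 of 4 exposed pools and 1 of 5 control pools, too few to show a difference at this depth.

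The place of 1,6,7-TMN among the 22 chemicals was then read for the DEGs. The comparisons of chemicals with control share the 5 control pools, so these orders are descriptions. The control mean was above that of all 22 chemicals for fkbp5, klf9 and klf11a, and below that of all 22 for slc2a1b and rrp1. For fkbp5, 3 of the 21 other chemicals had a lower mean than 1,6,7-TMN (0.82 log2 CPM), with the others between -0.15 for 1,7-dimethylnaphthalene and 4.02 for naphthalene. For klf9, 4 others were lower, and for klf11a 5 others. For slc2a1b, 18 of the 21 others were lower than its mean of 4.49 log2 CPM, and 2-butylnaphthalene was the highest at 5.14 log2 CPM.

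sfrp1b and si:ch211-139g16.8 had their lowest mean of the 23 groups in 1,6,7-TMN. A mean below that of the control was not particular to it, with 21 of the 22 chemicals below for sfrp1b and 17 for si:ch211-139g16.8. For sfrp1b the next lowest was 1,4,5-TMN at 5.29 log2 CPM, beside 5.19 ± 0.28 (SD, n = 4), so that these neighbours did not differ beyond their spread. For si:ch211-139g16.8 the mean was -2.05 ± 0.39 (SD, n = 4), while the 21 others ran from -0.41 for 2,7-di-tert-butylnaphthalene to 2.31 log2 CPM for 1,4,5-TMN. Of the 84 other exposed pools, 6 were at or below the highest pool of 1,6,7-TMN and 3 had no reads.

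**Figure D4:**
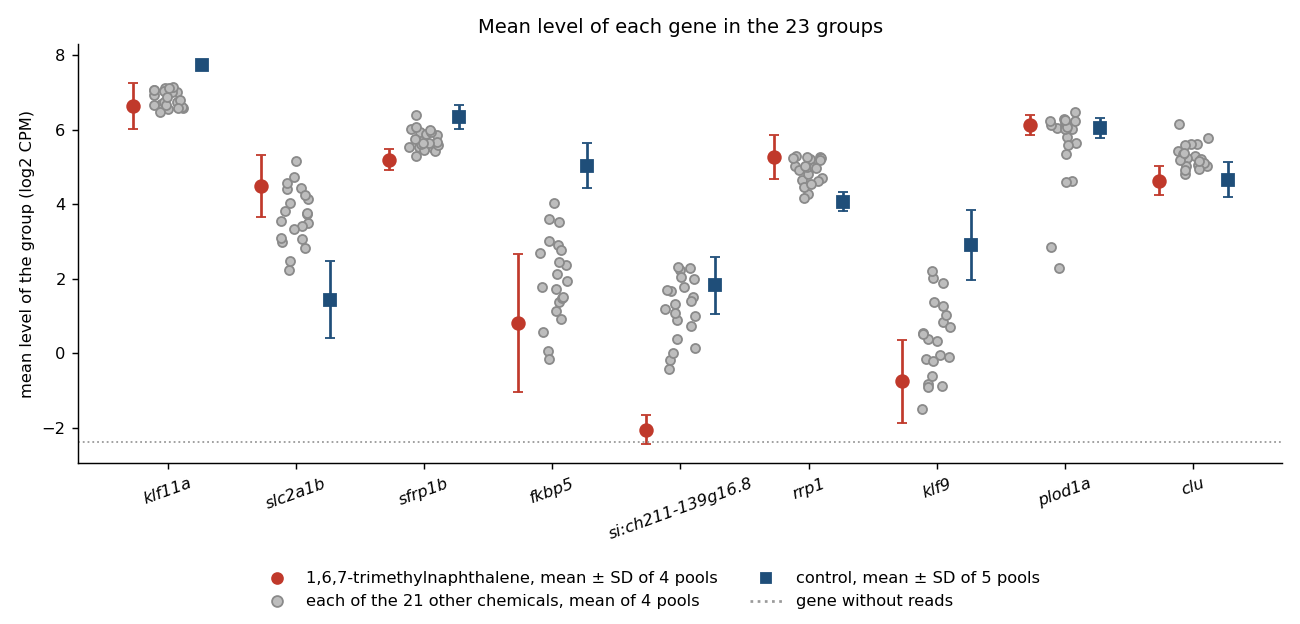
Mean level in log2 CPM (vertical axis) of the 7 DEGs and of plod1a and clu in 1,6,7-TMN (red circle, left, ± SD of 4 pools), in each of the 21 other chemicals (grey circles) and in control embryos (blue square, right, ± SD of 5 pools). For fkbp5, klf9 and klf11a every chemical lies below the control, and for si:ch211-139g16.8 the red point at -2.05 lies apart from the grey ones.

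Against the mean of the 21 other chemicals, 1 gene of 3068 was a DEG (0.0326%), and 321 had an unadjusted p under 0.05. It was si:ch211-139g16.8, with a mean of -2.05 log2 CPM in 1,6,7-TMN, against 1.19 log2 CPM in the others (difference -3.24, SE 0.64, limma adjusted p = 0.00525). Against the 10 others of the same day it was again the single DEG, and it was lost with a pseudocount of 1 or 4 CPM, with the day as a covariate or without pool B of 1,6,7-TMN. The differences from the other chemicals did not pass for fkbp5 (-1.17, 95% interval -2.56 to 0.21), klf9 (-1.13, interval -2.46 to 0.20), klf11a (-0.21, interval -0.52 to 0.10), slc2a1b (0.81, interval -0.09 to 1.70) and rrp1 (0.37, interval -0.06 to 0.79). sfrp1b differed by -0.55 (interval -0.91 to -0.18), with an adjusted p of 0.342 over all genes.

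The chemical was compared directly with 6 relatives at the same dose and hours, with p values adjusted over the 3068 genes of each comparison. 1,4,6,7-TeMN, the tetramethyl compound, carries 1 more methyl group, at carbon 4. 1,6-Dimethylnaphthalene and 1,7-dimethylnaphthalene each lack 1 of the methyl groups of the second ring, and 2,3-dimethylnaphthalene is what remains without the methyl group at carbon 1. 1,4,5-TMN and 2,4,5-TMN are isomers, trimethylated at the carbons of their names. 1,6- and 1,7-dimethylnaphthalene were exposed on day 2, so that for these the day and the structure cannot be told apart.

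The additional methyl group at carbon 4 went with a difference in 1 gene of 3068 (0.0326%), plod1a, a lysyl hydroxylase gene of collagen processing. It was between 5.78 and 6.43 log2 CPM in the 4 pools of 1,6,7-TMN, against 1.61 to 3.48 log2 CPM in the 4 pools of 1,4,6,7-TeMN. The difference was 3.83 (SE 0.24, limma adjusted p = 1.14e-21), and the pools did not overlap. The level in 1,6,7-TMN, 6.12 ± 0.27 log2 CPM (SD, n = 4), was within the spread of the control embryos, 6.03 ± 0.27 log2 CPM (SD, n = 5). For the DEGs against control the differences from the tetramethyl compound were 0.25 for fkbp5 (95% interval -1.66 to 2.16), 0.07 for klf9 (interval -1.77 to 1.91), 0.35 for slc2a1b (interval -0.89 to 1.59) and -0.50 for klf11a (interval -0.93 to -0.08), with adjusted p values of 0.530 to 1. si:ch211-139g16.8 differed by -3.82 (interval -5.60 to -2.05, adjusted p = 0.0738) and was called by voom beside plod1a. In a fit of the 8 pools alone plod1a was not called, and a single other gene, kpnb3, was.

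Loss of the methyl group at carbon 6, in 1,7-dimethylnaphthalene, went with 30 DEGs (0.978%), 13 higher and 17 lower in 1,6,7-TMN. For 21 of the 30 the pools did not overlap. These genes were chosen for their difference, and the share over all genes was not counted, so this count adds no support. plod1a was again the foremost, at 5.78 to 6.43 log2 CPM in 1,6,7-TMN, against 2.62 to 3.15 log2 CPM in 1,7-dimethylnaphthalene (difference 3.28, SE 0.24, adjusted p = 4.69e-18). ccnb1, the gene of mitotic cyclin B1, was at 5.57 to 6.39 log2 CPM, against 4.23 to 4.86 log2 CPM in 1,7-dimethylnaphthalene (difference 1.43, SE 0.18), and nnt, a mitochondrial source of NADPH, at 6.12 to 6.40 log2 CPM, against 4.78 to 5.91 log2 CPM (difference 1.2, SE 0.21). fgfbp2b was higher by 1.11 (SE 0.22), and snrpg, a splicing protein gene, was lower, with a difference of -1.34 (SE 0.25). The level after 1,6,7-TMN lay close to the control mean for plod1a, ccnb1 and nnt, with log2FC values against control of 0.09, 0.17 and -0.07.

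rrp1 (1.11, SE 0.30) and si:ch211-139g16.8 (-3.12, SE 0.89) were the DEGs against control that also passed between these chemicals. fkbp5 and klf9 differed by 0.97 (95% interval -0.94 to 2.88) and 0.15 (interval -1.69 to 2.00). With the exposure day as a covariate, which rests on the control pools alone, plod1a and ccnb1 were the 2 DEGs left, and in a fit of the 8 pools alone 2 genes, plod1a and adat1, passed. The count was 16 without pool B of 1,7-dimethylnaphthalene and 53 without its pool E. Centring each pool on its median moved the median of all genes by 0.12 and the split to 20 higher and 11 lower, so the balance of directions depends on the scaling.

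Against 1,6-dimethylnaphthalene, which lacks the methyl group at carbon 7, there were 0 DEGs (0%) by limma, with 206 genes at an unadjusted p under 0.05, and 1 by voom, saa. Against 2,3-dimethylnaphthalene there were 0 (0%) with limma and 0 with voom, while 411 genes were at that p. slc2a1b, for example, was at a mean of 4.49 log2 CPM in 1,6,7-TMN, against 2.46 log2 CPM in 2,3-dimethylnaphthalene (difference 2.03, 95% interval 0.79 to 3.27, limma adjusted p = 0.156), and fkbp5 at 0.82 log2 CPM, against 3.52 log2 CPM (difference -2.70, interval -4.61 to -0.79, adjusted p = 0.194). Intervals of this width leave room for sizeable differences that 4 pools against 4 did not resolve. For fkbp5 the difference from 1,6-dimethylnaphthalene was -1.94 (interval -3.85 to -0.03, adjusted p = 0.723).

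Of the 2 isomers, 1,4,5-TMN gave 2 DEGs (0.0652%), both lower in 1,6,7-TMN. si:ch211-139g16.8 was at -2.39 to -1.64 log2 CPM, against 0.91 to 3.34 log2 CPM in 1,4,5-TMN (difference -4.36, SE 0.89, limma adjusted p = 0.0122). clu, the gene of the extracellular chaperone clusterin, was at 4.12 to 4.94 log2 CPM, against 5.39 to 6.08 log2 CPM (difference -1.13, SE 0.25, adjusted p = 0.0315), and its level in 1,6,7-TMN differed by -0.03 from the control. A fit of these 8 pools alone called 0, as did leaving out pool A or D of 1,4,5-TMN, and 4 genes were called without pool E of 1,6,7-TMN. clu was also lost without pools A or B of 1,6,7-TMN or without pool C of 1,4,5-TMN. Against 2,4,5-TMN there were 0 DEGs (0%) with limma and 0 with voom, while 179 genes had an unadjusted p under 0.05. Here si:ch211-139g16.8 differed by -3.74 (95% interval -5.51 to -1.97, adjusted p = 0.0770), and fkbp5 by -0.65 (interval -2.56 to 1.26).

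**Figure D5:**
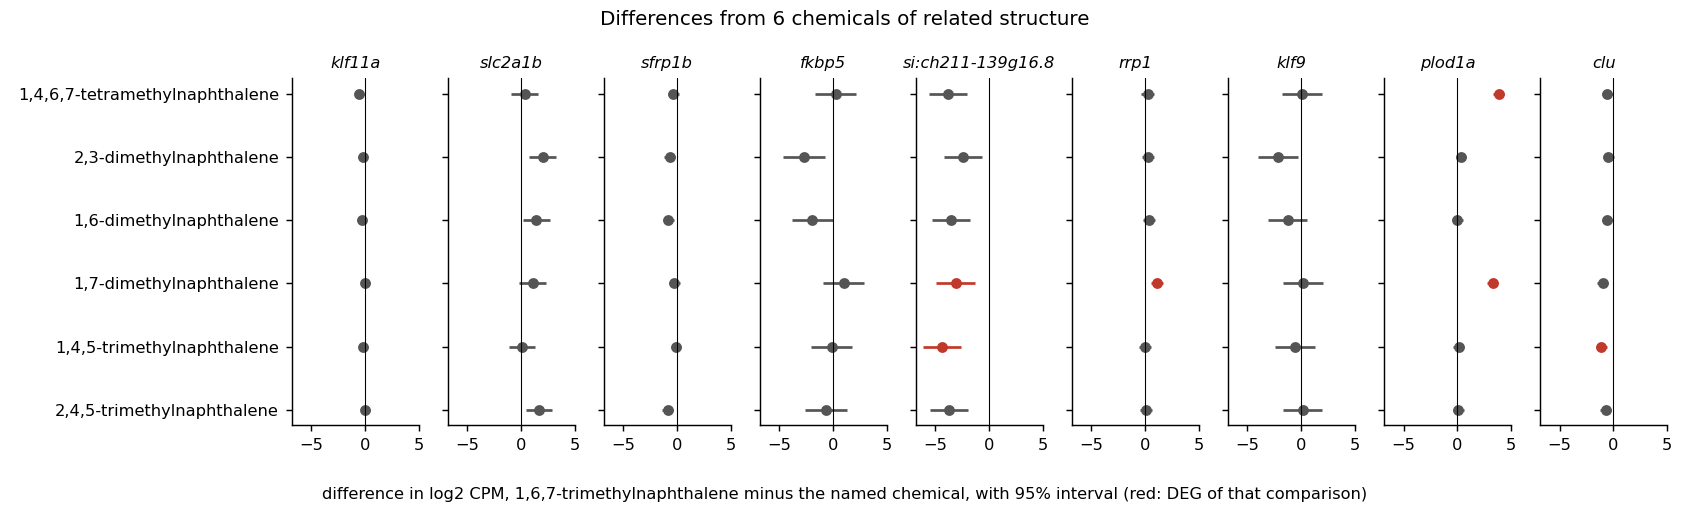
Difference in log2 CPM (horizontal axes, 1,6,7-TMN minus the chemical named at the left) with its 95% interval for the 7 DEGs against control and for plod1a and clu. Red marks the DEGs of a comparison, and for si:ch211-139g16.8 the 6 intervals lie below 0.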

How the data were processed

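TempO-Seq was run on whole zebrafish embryos. The authors obtained gene counts with TempO-SeqR, summed the probes of a gene, corrected for exposure day with ComBat_seq, applied upper quartile normalization (the labels name edgeR) and deposited log2 CPM (build GRCz11). The deposited table of fold changes, p values and scores of the authors' own comparisons was not used.

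The log2 values gave back whole reads, as they stood after the authors' correction (prior count 2, tolerance 0.02 reads, 100% whole). limma 3.58.1 (lmFit, eBayes, R 4.3.3) was fitted to the log2 values of 93 pools in 23 groups with no covariate and tested on simulated data. Alternatives were centring, pseudocounts of 1 and 4 CPM, a filter of 1 CPM, trend, robust prior, the compared groups only, voom (upper quartile, TMM), day, letter block, same-day pools and leaving out each pool. Intervals of ratios are exact, treat the corrected counts as plain reads and leave out the spread between pools.

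The members and lists were chosen with earlier results of these data known. Named were all DEGs against control, the 25 smallest p values, 8 genes that the study names or that earlier results gave as frequent (plod1a), up to 6 DEGs a comparison and up to 2 genes a list. Symbols are in lower case. Of 3068 rows, 2330 matched a symbol of the reference table, and 1 row with a number for a name was tested but is not named. No coordinates are given, since the reference is of another build. Of 94 labelled samples 93 had a column and 0 columns were unused. A few genes the naming rule picks are not reported here.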

Additional observations from a re-analysis of the deposited data

Results flagged for a closer look

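In 14 of 144 groups of pools (72 named genes in 2 groups) a single pool stood apart from the others by Dixon's criterion, where chance gives about 5%. Among exposed pools, nt5e was at 0.72 log2 CPM in pool B with the others at -2.39, nt5dc2 at 7.21 in pool A with the others at 7.54 to 7.60, ephx1 at 0.27 in pool E with the others at 3.48 to 3.63, myl4 at 1.38 in pool D with the others at -2.39 to -1.76, ctsla at 12.63 in pool A with the others at 12.17 to 12.24, and mrps2 at -1.80 in pool D with the others at 2.29 to 2.67. Among control pools of day 1, fkbp5 was at 3.99 in pool A with the others at 5.07 to 5.48, ctss2.1 at -0.92 in pool C with the others at 1.83 to 2.90, and abcb11b at 0.20 in pool A with the others at -2.39 to -1.70. Among control pools of day 2, slc2a1b was at -0.36 in pool B with the others at 1.61 to 2.16, nt5e at 1.94 in pool B with the others at -2.39, cdk6 at -2.39 in pool B with the others at 1.87 to 3.32, nfil3 at 6.31 in pool A with the others at 5.76 to 5.90, and neurod1 at 6.82 in pool C with the others at 7.23 to 7.30. What set these pools apart was not tested.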

How the results depend on the processing

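The 7 DEGs against control kept their direction under the 21 alternatives run. For most alternatives this was fixed in advance, since the exposed pools of each gene did not overlap the control pools. Leaving out pools, the filter, trend, robust prior, pseudocounts, day and compared groups only could not change a sign. Centring, voom and the letter block could. The count was 1 with the compared groups only and 4 with voom under both scalings, and 2 to 12 when a pool was left out, the lowest without exposed pool E and the highest without exposed pool D. With the day as a covariate or with same-day controls it was 5, with 0 genes shared with the 7, and both settings compare the exposed pools with the day 1 control pools. Pool letters did not pair the samples (correlations of -0.04 to 0.05), and a replicate block by letter gave 7 DEGs against control, of which 6 were shared, with klf9 lost and ndufa4 gained, and 1 against 2,3-dimethylnaphthalene and 32 against 1,7-dimethylnaphthalene. Against 1,4,6,7-TeMN the count of 1 became 3 after centring and 2 with voom under both scalings, and 1 to 2 without a pool. Against 1,6-dimethylnaphthalene 0 became 1 with voom under both scalings and 1 with the day as a covariate, and 0 to 1 without a pool, the same range as for 2,3-dimethylnaphthalene. Against 1,7-dimethylnaphthalene 30 became 2 with the compared groups only and 2 with the day as a covariate, and 16 to 53 without a pool. Against 1,4,5-TMN 2 became 0 with the compared groups only and 1 with voom under both scalings, and 0 to 4 without a pool. Against 2,4,5-TMN 0 became 1 after centring and 4 with the compared groups only, and 0 to 2 without a pool. Against the 21 others 1 became 0 with a pseudocount of 1 or 4 CPM and with the day as a covariate, 2 with voom under both scalings, and 1 to 4 without a pool. Fits of the compared groups only have fewer pools, and the cause of the other changes was not tested. At 7794976 to 10792348 reads an exposed pool does not resolve genes of a few reads.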
